A study of Mus musculus with 18 samples.

Results

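Somatostatin (Sst) interneurons were followed in the hippocampus (Hip) and the prefrontal cortex (PFC) of mice that differed in gut microbiota. They numbered 977 of the 138000 nuclei kept, and 977 of the 11314 nuclei classed as GABAergic. A nucleus was kept with at least 200 detected genes and at most 10% of its unique molecular identifiers (UMIs, each standing for 1 captured RNA molecule) from mitochondrial genes. It was classed as GABAergic with at least 2 UMIs of Gad1 and Gad2 together, the glutamate decarboxylases that make GABA, and at most 1 UMI of Slc17a7, the vesicular glutamate transporter of excitatory neurons. It was called an Sst interneuron with at least 3 Sst UMIs and more Sst UMIs than UMIs of each of Pvalb, Vip and Lamp5, which mark other interneuron classes. The nuclei were thus selected on the measured UMIs of these 7 genes, whose levels below are a description without a test.

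The 9 Kun Ming mice were 8 weeks old, and 1 library of each region came from each mouse (18 libraries, 3 per group and region). GF mice (numbers 5, 6 and 7) were raised without germs in isolators. SPF mice (30, 31 and 32) were free of specific pathogens and carried a microbiota, and they were housed apart from the others. CGF mice (17, 18 and 19) were born germ-free and shared an isolator with SPF mice for 4 weeks from the age of 4 weeks. Values are given below in the order of these mouse numbers. The questions were whether the microbiota's absence moved gene expression in these nuclei, and whether colonization after weaning left them nearer to GF or to SPF mice.

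Sst interneurons release GABA onto the dendrites of pyramidal cells and so gate the excitatory input that those cells receive. Somatostatin is made as a precursor, cleaved by convertases, and stored with granins in dense-core vesicles. In the cortex the class holds Martinotti cells, which reach layer 1, and a rare long-range type that also makes neuropeptide Y, nitric oxide synthase and chondrolectin. In the hippocampus it holds cells of stratum oriens, whose axons run to stratum lacunosum-moleculare, and cells of the dentate hilus. They arise from the medial ganglionic eminence, whose progeny carry the transcription factors Lhx6, Sox6 and Satb1, whereas Vip and Lamp5 cells mostly arise from the caudal eminence and carry Adarb2.

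The promoter of Sst is shown because it holds the element through which cAMP and the factor CREB are known to act on this gene. The 250 bases before the RefSeq start lay at chr16:23890845-23891094 on the minus strand of GRCm38.p6, and capitals mark the cAMP response element TGACGTCA, at bases -48 to -41 from the start.
Sst: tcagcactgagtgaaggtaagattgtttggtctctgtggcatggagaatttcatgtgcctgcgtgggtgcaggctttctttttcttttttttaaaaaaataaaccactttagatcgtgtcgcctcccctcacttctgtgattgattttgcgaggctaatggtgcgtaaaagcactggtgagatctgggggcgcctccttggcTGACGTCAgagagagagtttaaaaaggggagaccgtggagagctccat
The same 8 letters, which read alike on both strands, were searched in the peptide precursor and peptide processing genes listed for these cells. Of 24 genes, 19 had a promoter in the RefSeq table and 5 of those held the element in any of their promoters. Sst, already known to hold it, is among the 5. Counted by promoter and not by gene, 508 of all 32851 promoters of that length held it (1.55%), so the counts are not alike. Besides Sst the genes with the element were Scg2 and Chgb, granins of dense-core vesicles, Pcsk1, a prohormone convertase, and Cartpt, the precursor of CART peptide. They are shown as 40-base windows with the element in capitals.
Scg2: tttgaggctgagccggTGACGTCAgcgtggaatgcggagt
Chgb: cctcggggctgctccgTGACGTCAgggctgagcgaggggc
Pcsk1: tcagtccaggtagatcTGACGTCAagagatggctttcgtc
Cartpt: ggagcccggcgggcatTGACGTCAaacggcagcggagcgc
The element began 68 bases before the start in Scg2 (promoter chr1:79440027-79440276, minus strand), 72 in Chgb (chr2:132781392-132781641, plus), 78 in Pcsk1 (chr13:75089607-75089856, plus) and 112 in Cartpt (chr13:99900684-99900933, minus). A match is a description of the letters and not of a bound site. In the Sst nuclei of single libraries Pcsk1 stood at 3.91 to 39.6 and Cartpt at 0 to 14.6 CPM, too low for the group and region tests, while Scg2 and Chgb are described with the groups.

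The libraries differed in ways that ran with the groups. Library totals were 49067853 to 63217083 UMIs in the Hip, while in the PFC they were 59126586 to 71463928 in GF mice and 20336250 to 26949210 in SPF and CGF mice. The median Sst nucleus of a library held 6542 to 7982.5 UMIs in GF Hip and 7915 to 13791 in the other Hip libraries, and 7244 to 7804 UMIs in GF PFC and 3310 to 4804 in the other PFC libraries. Malat1, a nuclear RNA, stood at 61430 to 77768 CPM (the UMIs of a gene scaled to a common total) in the Sst nuclei of all 6 GF libraries and at 24713 to 36929 in the other 12. Gm42418, which overlaps a ribosomal RNA repeat, stood at 128 to 162 CPM in GF PFC, 9974 to 18938 in SPF and CGF PFC, and 191 to 1361 in all Hip libraries. Markers of oligodendrocytes (5 genes) summed in the Sst nuclei to 54.1 to 113 CPM for GF, 124 to 221 for SPF and 84.1 to 207 for CGF Hip, and to 133 to 149, 126 to 258 and 58.2 to 113 CPM in the PFC of the same groups. Markers of astrocytes (4 genes) summed to 113 to 139 CPM for GF, 141 to 176 for SPF and 64.1 to 247 for CGF Hip, and to 154 to 241, 286 to 483 and 213 to 276 in the PFC. GF mice thus lay below SPF mice without overlap in both sets in the Hip and in the astrocyte set in the PFC. The choroid plexus gene Ttr ranged from 2.58 to 2028 CPM within GF Hip and was at 0 in every PFC library. Any 2 libraries shared 6 to 29 of their barcodes, and no barcode of an Sst nucleus was shared. The part of these differences in the results below was not tested unless a value is given.

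The nuclei carried the markers of their label. Pooled over libraries as CPM, Sst stood at 680 in Hip and 1289 in PFC (library medians 351 and 1913, the pooled sums resting mostly on the GF nuclei), while Pvalb (9.87 and 13.8), Vip (3.95 and 14.04) and Lamp5 (8.29 and 20.6) were low, as the selection required. Several medial eminence markers that the selection did not use were higher than in GABAergic nuclei with no Sst UMI, though not than in every other class: Sox6 stood at 342 CPM in Hip nuclei and 892 in PFC nuclei, and the nuclei with no Sst UMI had 192 and 384, but the Pvalb nuclei, of the same origin, had 463 and 887. Lhx6 stood at 61.2 and 86.2 CPM, against 26.5 and 30.4, and at 64.1 in the Lamp5 nuclei of the Hip. Grin3a, an NMDA receptor subunit, was at 619 and 1000 CPM against 168 and 83.4, and Elfn1, a synaptic protein of Sst cells that sets the facilitation of their inputs, was at 172 and 255 against 31.1 and 34.2. The Vip nuclei were nearer, with Elfn1 at 109 and 159 CPM and Grin3a at 109 in both regions. Adarb2 was at 243 and 238 CPM in the Sst nuclei and at 18083 and 17256 in the Vip nuclei. Another gene of the caudal list, the transcription factor Npas1, was not low, with 63.6 and 200.2 CPM in the Sst nuclei against 46.6 and 82.5 in GABAergic nuclei with no Sst UMI and 154.3 and 198.9 in the Vip nuclei.

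Nuclei close to the limit were more mixed. Those with 2 Sst UMIs, just outside it (304 in Hip, 251 in PFC), carried Adarb2 at 1328 and 1229 CPM, those with 3, just inside it (84 and 150), at 312 and 484, those with 4 to 5 (83 and 179) at 425 and 380, and those with 6 or more (106 and 375) at 30.3 and 88.3. Elfn1 stood at 109 and 120 CPM at 2 UMIs, 147 and 207 at 3, 186 and 246 at 4 to 5, and 177 and 276 at 6 or more, so that in the Hip neither gene moved evenly with the number of Sst UMIs. Adarb2 also differed between Hip libraries, with 295, 175 and 58.9 CPM in GF, 64.4, 66.5 and 1007 in SPF and 0, 127 and 2303 in CGF mice. Mice 32 and 19 were therefore far above the others, with 11 Sst nuclei each.

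Sst nuclei made up a smaller share of GABAergic nuclei in the Hip than in the PFC, 273 of 6156 against 704 of 5158. In the Hip the share was 7.55, 12.6 and 11.3% in GF, 2.92, 1.97 and 1.30% in SPF and 1.20, 1.88 and 1.22% in CGF mice. All 3 GF mice lay above all 6 others, and SPF and CGF mice overlapped. The means were 10.5 ± 2.61% for GF, 2.06 ± 0.815% for SPF and 1.43 ± 0.388% for CGF mice (SD, n = 3 each), and the groups differed in an exact permutation test over all assignments of the 9 mice (two-sided, P = 0.00714). The difference of GF from SPF alone, 8.41 points, reached P = 0.1, the smallest that an exact test of 3 against 3 allows.

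In the PFC the share was 14.1, 18.8 and 12.0% in GF, 15.4, 12.5 and 17.8% in SPF and 5.75, 15.8 and 11.8% in CGF mice, and the groups overlapped (exact permutation P = 0.414). A fixed number of Sst UMIs is reached more easily in a deeper nucleus, so each nucleus was also thinned to 2000 UMIs. The Hip share then fell to 0.382, 2.86 and 2.19% in GF, 0.725, 0 and 0.313% in SPF and 0% in all 3 CGF mice, and GF and SPF mice overlapped (exact permutation P = 0.05). These Hip shares rest on only 1, 8 and 6 Sst nuclei in GF, 2, 0 and 1 in SPF and none in CGF mice. The PFC share became 4.06, 4.53 and 3.07% in GF, 12.8, 10.3 and 11.5% in SPF and 5.43, 9.13 and 11.9% in CGF mice, all 3 GF mice lying below the 6 others (exact permutation P = 0.0143). As a share of all kept nuclei GF mice were instead the highest in the PFC, with a mean of 1.61%, while SPF mice had 0.869% and CGF mice 0.635% (exact permutation P = 0.00714). The order of the groups in the PFC thus depended on the depth per nucleus and on the denominator.

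Sst RNA over the whole GABAergic sum needs no limit on Sst UMIs per nucleus. The Gad1, Gad2 and Slc17a7 limits still decided which nuclei entered the sum, and these too depend on depth. GABAergic nuclei numbered 788, 796 and 1096 in GF, 376, 343 and 400 in SPF and 609, 411 and 339 in CGF PFC. In the Hip Sst RNA averaged 149 ± 49.5 CPM for GF, 49.9 ± 11.3 for SPF and 35.8 ± 3.90 for CGF mice (SD, n = 3). In the PFC it averaged 231 ± 42.8 for GF, 413 ± 70.3 for SPF and 318 ± 103 for CGF mice (SD, n = 3). The means of the groups had the order of the thinned shares in each region. Fewer Sst cells and less Sst RNA per cell cannot be told apart from such sums. Sst UMIs were also found in cells that should lack them: 13.1 to 30.9% of oligodendrocyte nuclei in the Hip and 4.23 to 34.9% in the PFC held at least 1 (GF PFC 32.3 to 34.9, SPF PFC 4.23 to 16.4), against 21.5 to 39.0% and 14.3 to 49.8% of GABAergic nuclei, at library medians of 933 to 2890 and 2836 to 9199 UMIs. Thinned to 2000 UMIs, the share with at least 1 Sst UMI was higher in oligodendrocyte than in GABAergic nuclei in 7 of the 9 Hip libraries (all CGF and SPF mice, for example 20.1 against 10.2% in SPF mouse 32, and GF mouse 5, 20.6 against 13.7%) and in GF mice 5 and 7 of the PFC. In these libraries the share of GABAergic nuclei with an Sst UMI reads as background, and the part of such UMIs in the Sst CPM of the sums was not tested. At 3 Sst UMIs there were 0 to 3 oligodendrocyte nuclei per library, and among excitatory nuclei, which are deeper, 2 to 8 in the Hip, 25, 27 and 23 in GF PFC and 1 to 10 in SPF and CGF PFC.

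Within each mouse the Hip share lay below the PFC share, and Hip minus PFC averaged -9.12 points (9 of 9 mice, exact sign-flip permutation P = 0.00391). Thinned to 2000 UMIs the difference was -7.36 points, again in 9 of 9 mice (exact permutation P = 0.00391).

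**Figure D1:**
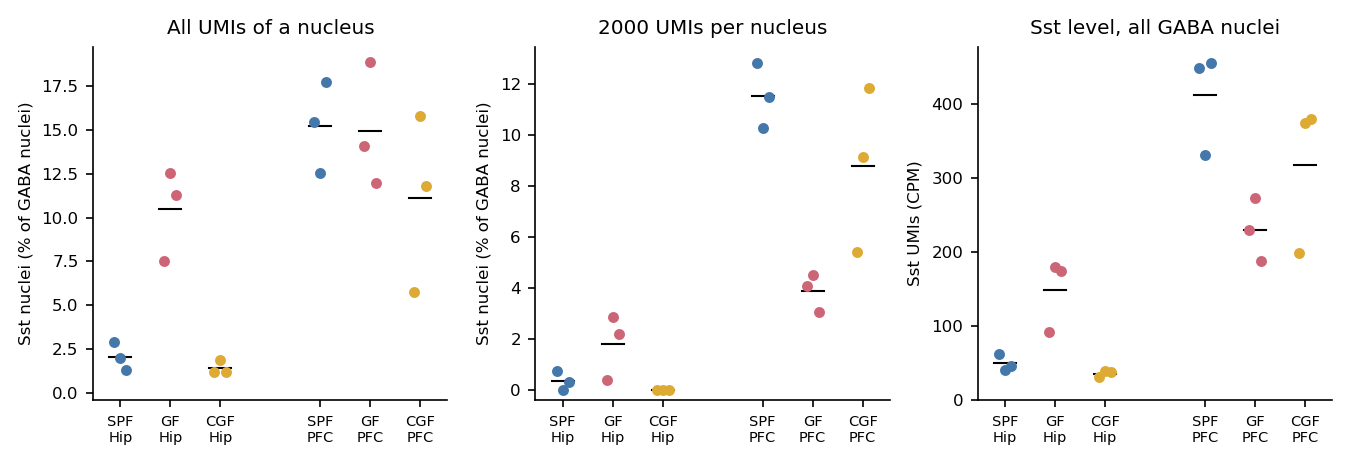
Sst nuclei as a percentage of GABAergic nuclei at all UMIs (left) and at 2000 UMIs per nucleus (middle), and Sst CPM over all GABAergic nuclei (right), by group and region. Each point is 1 library and each black line the mean of 3; in the Hip the GF points at 7.55 to 12.6% lie above all others, and in the PFC the groups overlap at all UMIs but GF mice, at 3.07 to 4.53%, are lowest at 2000.

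Subtype markers were scored as the percentage of Sst nuclei with at least 1 UMI after thinning to 2000 UMIs (273 nuclei in Hip, 695 in PFC), and regions were compared within mice. Of 14 markers, 6 were less frequent in Hip Sst nuclei by an exact sign-flip permutation test adjusted over the 14. Npy, the precursor of neuropeptide Y, was found in 0 to 18.2% of the nuclei of a Hip library and 18.3 to 42.9% of a PFC library, a mean of 10.4 against 29.1% (lower in 9 of 9 mice, adjusted permutation P = 0.0182). Nos1, the neuronal nitric oxide synthase, averaged 3.05 against 9.50%, and Pdyn, the dynorphin precursor, 0.483 against 7.93% (each 9 of 9, adjusted permutation P = 0.0182). Calb1, a calcium buffer, averaged 8.09 against 18.8% and Elfn1 27.8 against 43.1% (each 8 of 9, adjusted permutation P = 0.0219).

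Chodl, which marks the long-range cells, averaged 0 against 1.58% (7 of 9 mice, adjusted permutation P = 0.0365), and its call was lost in 8 of 10 alternatives, among them those without mouse 5, 6, 7, 17, 18, 30 or 32 (adjusted permutation P = 0.0625 to 0.0729). The other 8 markers, among them Reln (49.6 against 67.1%) and Crh, Tac1, Hpse and Chrna2, did not pass. In the pooled oligodendrocyte nuclei of the same libraries, thinned alike (1526 in Hip, 323 in PFC), Npy was found in 3.15% and 15.2%, Calb1 in 10.3 and 8.67%, and Nos1, Pdyn and Elfn1 each in at most 2.75%. Most of those PFC nuclei came from GF mice, with 68 to 107 per library and Npy in 10.3 to 22.4%. The SPF and CGF libraries had 3 to 11 each and Npy in 0 to 9.09%. In GF PFC, Npy was found in 20, 22 and 18.3% of Sst nuclei and 22.4, 10.3 and 15.9% of oligodendrocyte nuclei. In GF Hip these shares were 14.29, 16.85 and 13.04% of Sst nuclei and 3.23, 3.35 and 2.33% of oligodendrocyte nuclei. Npy in GF PFC Sst nuclei thus lay near this background, and its part in the Npy difference between regions was not tested. Pooled over libraries like the oligodendrocyte nuclei, Calb1 was found in 11.4% of Hip Sst nuclei (interval 7.85 to 15.7%), Nos1 in 3.66% (1.77 to 6.63%) and Pdyn in 1.10% (0.227 to 3.18%). These intervals held the Hip background of 10.3, 2.75 and 0.524%. They cover the counting error of pooled, mostly GF nuclei and not the spread between mice. Single Hip libraries ranged from 0 to 23.2% for Calb1, 0 to 9.09% for Nos1 and 0 to 4.35% for Pdyn. At all UMIs no marker passed (lowest adjusted permutation P = 0.0547).

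The markers of the long-range type occurred together. At all UMIs, 21 PFC Sst nuclei held Chodl, and all 21 also held Nos1 and Npy (exact 95% interval of the Npy share 83.9 to 100%, counting error only). In the Hip 1 nucleus held Chodl, with both others. Among all 94 PFC nuclei with Nos1, 63 held Npy (67.0%, interval 56.6 to 76.4%), against 42.0% of those without. Among the 30 in the Hip, 12 did (40.0 against 33.7%). These pairs were counted at unequal depth, with median UMIs of 5602 with and 6087 without Nos1 in the PFC and 8874 and 7853 in the Hip.

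**Figure D2:**
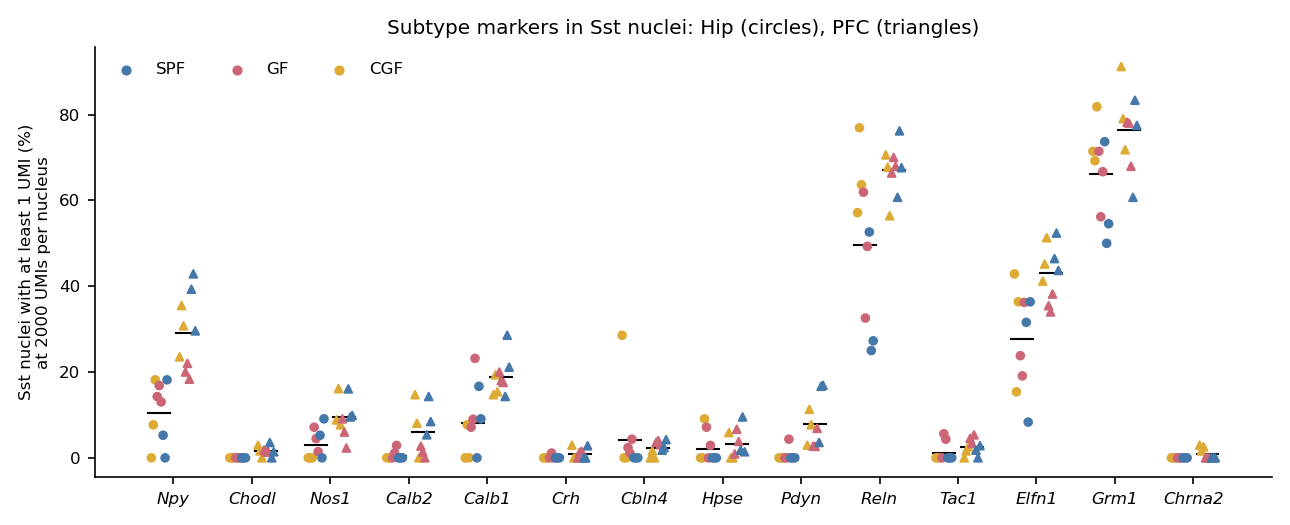
Percentage of Sst nuclei with at least 1 UMI of each of 14 subtype markers at 2000 UMIs per nucleus, by library (Hip circles, PFC triangles, lines for the means). The Npy, Nos1 and Pdyn points of the Hip lie lower than those of the PFC in each mouse, with means of 10.4 against 29.1% for Npy.

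For expression, UMIs were summed over the Sst nuclei of each library and tested with edgeR. Between Hip and PFC, 194 of 6038 genes differed in GF mice (3.21%, 1.54% higher in Hip and 1.67% lower), 1755 in SPF mice (29.1%, 14.8% and 14.3%) and 1514 in CGF mice (25.1%, 12.6% and 12.5%). In all 3 groups 88 differed in the same direction (1.46%), 59 higher in Hip (0.977%) and 29 lower (0.480%). The genes below passed in all 3 unless stated, and are given as log2 fold changes of Hip over PFC ± SE with edgeR's adjusted p. Hip Sst nuclei carried more Tenm3, Tenm2, Zfpm2, Epha7 and Htr4, and PFC nuclei more Unc13c, Sox6 and Pdyn.

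Tenm3, a teneurin that guides hippocampal wiring, stood at 1232, 1650 and 1334 CPM in GF Hip and 157, 106 and 121 in GF PFC. It stood at 1419, 2181 and 1611 against 138, 67.3 and 160 CPM in SPF, and at 3730, 1463 and 3382 against 243, 75.8 and 123 in CGF mice. Every Hip library was above every PFC library, and over all genes the regions did not overlap for 20.0% for GF, 40.1% for SPF and 36.7% for CGF mice. For Tenm3 this gave log2 fold changes of 3.46 ± 0.32, 3.78 ± 0.36 and 4.33 ± 0.36 in GF, SPF and CGF mice (adjusted p = 7.6e-08 in GF mice). Its relative Tenm2 was higher by 1.57 ± 0.18, 2.53 ± 0.19 and 3.12 ± 0.20. Epha7, an ephrin receptor, stood at 291 to 387 against 98.8 to 138 CPM in GF mice and was higher by 1.53 ± 0.22, 2.68 ± 0.28 and 3.12 ± 0.31.

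Zfpm2, a cofactor of GATA factors, was at 731 to 1827 CPM in all Hip and 124 to 297 in all PFC libraries, with changes of 2.33 ± 0.25, 2.52 ± 0.28 and 3.14 ± 0.28. Htr4, a serotonin receptor that raises cAMP, was at 43.9 to 288 against 0 to 23.1 CPM, higher by 2.07 ± 0.39, 3.64 ± 0.72 and 3.06 ± 0.62. Pappa, a protease of IGF binding proteins, had no UMI in the 3 SPF PFC libraries and 102, 65.1 and 215 CPM in SPF Hip, at least 26.2-fold higher against 3 UMIs over the group. In GF mice it was higher by 3.49 ± 0.45 and in CGF mice by 5.97 ± 0.72, and the GF call was lost in 1 of 16 alternatives, the sums thinned to the smallest (3.15, adjusted p = 0.103). Tenm3, Tenm2, Zfpm2, Epha7, Htr4 and, in the other direction, Unc13c kept their calls in all 3 groups under every alternative run for them.

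Of 23 glutamate receptor genes, 20 were tested: 3 were higher and 3 lower in Hip in GF mice (list median -0.13, all genes 0.00), 8 and 2 in SPF (0.20, 0.02), and 9 and 1 in CGF mice (0.51, -0.01). The AMPA receptor subunit Gria1 was higher by 0.86 ± 0.21, 0.89 ± 0.21 and 1.24 ± 0.21, and Gria4 by 0.76 ± 0.18, 1.40 ± 0.19 and 1.74 ± 0.19. Grm5, a group I metabotropic receptor, was higher by 0.86 ± 0.19, 2.16 ± 0.20 and 2.16 ± 0.20, while the kainate receptor Grik3 was lower (-0.84 to -1.09). Of 14 GABA receptor genes, 13 were tested, and none passed in GF mice, 7 were higher and 1 lower in SPF, and 5 higher in CGF mice. The phosphodiesterase Pde4d, which degrades cAMP, was higher in Hip by 0.90, 1.26 and 1.74.

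Lower in Hip was Unc13c, a vesicle priming factor, at 117, 48.7 and 107 against 656, 705 and 610 CPM in GF, 214, 26.0 and 233 against 560, 993 and 925 in SPF, and 0, 72.2 and 18.8 against 577, 665 and 474 in CGF mice. Its groups did not overlap, and the changes were -2.89 ± 0.36, -2.39 ± 0.39 and -3.93 ± 0.55. Camk2n1, an inhibitor of CaMKII, was lower (-1.18 in GF to -3.46 in CGF mice). The potassium channel Kcnk2 (-1.81, -1.20, -1.75), the receptor phosphatase Ptpru (-1.08, -2.62, -1.45) and the Ras exchange factor Rasgef1b (-1.58, -1.50, -3.01) were also lower.

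Sox6 stood at 424, 376 and 314 against 928, 964 and 861 CPM in GF mice and was lower in all 3 groups, with changes of -1.31 ± 0.28, -1.39 ± 0.30 and -1.47 ± 0.32, while Lhx6 and Satb1 passed in none. Of the 13 listed medial eminence factors, 9 were tested, and none was higher and 2 lower in GF, 1 and 4 in SPF, and 1 and 4 in CGF mice. Pdyn stood at 2.85, 1.68 and 7.67 against 19.3, 36.1 and 38.3 CPM in GF mice (-2.86 ± 0.65, adjusted p = 0.0121) and 14.6, 0 and 0 against 26.8, 95.3 and 85.0 in SPF mice. In CGF Hip it had no UMI, at least 9.55-fold below CGF PFC. Npy did not pass in GF mice (-0.50 ± 0.32, adjusted p = 0.62) but did in SPF (-3.90 ± 0.42) and CGF mice (-4.04 ± 0.52). The GF calls of Camk2n1, Ptpru, Sox6, Pdyn, Gria1, Gria4, Grm5, Grik3 and Pde4d were lost without mouse 6 (edgeR's adjusted p = 0.0831 to 0.43) or mouse 7 (0.0565 to 0.279), and those of Ptpru, Gria1, Gria4, Grik3 and Pde4d also without mouse 5 (0.0632 to 0.159). Single SPF or CGF mice ended calls of Rasgef1b, Kcnk2 and Gria1 (without mouse 30, 0.0505 to 0.0588), Rasgef1b, Pdyn and Grik3 (31, 0.0669 to 0.106), Pdyn (32, 0.0571), Pdyn and Grik3 (18, 0.0676 and 0.0718) and Ptpru (19, 0.0905). A correction for gene span and GC content was also fitted to every library. It ended the calls of Gria1 in SPF mice (0.55, edgeR's adjusted p = 0.0533) and Grik3 in GF mice (-0.76, 0.0623). Pde4d in SPF mice fell to 0.63 and kept its call. Gm42418 and depth differed between the regions of SPF and CGF mice as given above.

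**Figure D3:**
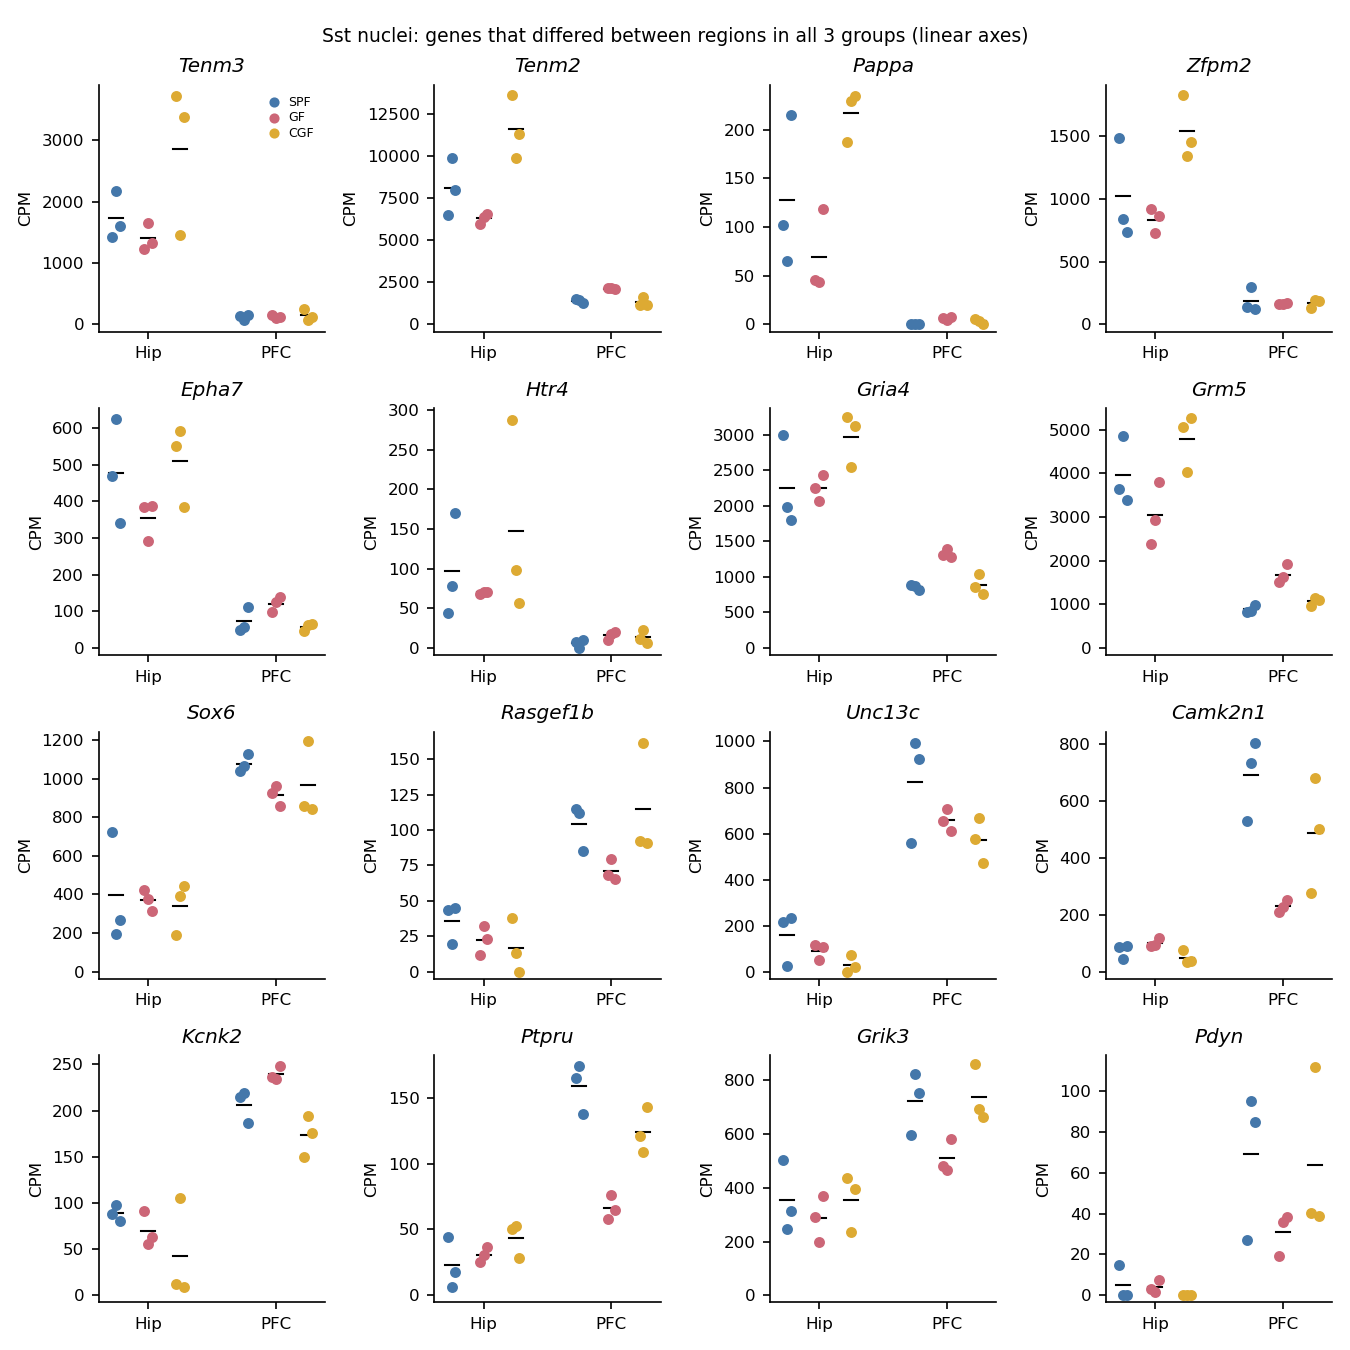
CPM in Sst nuclei of 16 genes by region and group (linear axes from 0, 1 point per library, both regions scaled together). Tenm3, Tenm2, Zfpm2 and Epha7 lie higher in every Hip than in every PFC library, and Unc13c lies lower.

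In the Hip, 205 of 3794 tested genes differed between GF and SPF mice (5.40%), 166 higher in GF mice (4.38%) and 39 lower (1.03%). GF Sst nuclei carried more mRNA of the E3 ubiquitin ligase Mid1 and less of the A-type potassium channel Kcnd2 and the polarity gene Pard3b. Of the tested peptide processing genes 5 of 12 rose, and of the nuclear genes of oxidative phosphorylation 8 of 24. The filter on low counts let a gene in when enough libraries reached its limit. Genes could thus enter the test through the group where they were high, in either region. The part of this in the list counts and medians was not tested. Sst nuclei numbered 42, 89 and 69 per GF library and 19, 12 and 11 per SPF library, so the SPF values rest on fewer nuclei. Of these, 14, 39 and 39 held 6 or more Sst UMIs in GF mice and 7, 2 and 1 in SPF mice. In CGF mice 0, 2 and 2 of 7, 13 and 11 did. The part of this mix in the changes between the groups was not tested. Of the 166 higher genes the median gene span was 9.97 kb, of the 39 lower genes 307 kb and of all tested genes 79.2 kb. When a correction for the span and GC content of genes was fitted to every library, 29 genes passed instead of 205, and of those named in this and the next 4 paragraphs only Mid1, Pard3b, Kcnd2 and Upp2 did. Some lost calls kept most of their log2 change, as Scg5 (1.56 from 1.61), Cpne8 (-2.64 from -2.83), Camk4 (-1.66 from -1.86) and Gabra2 (-1.08 from -1.22), while Pcsk1n (0.41 from 1.45), Cox8a (0.48 from 1.76) and Vgf (0.21 from 1.09) did not.

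Of 13 peptide processing genes, 12 were tested and 5 rose, none fell (list median 0.60, all genes -0.03). Scg5, the chaperone 7B2 of the convertase PC2, stood at 463, 532 and 573 CPM in GF and 188, 106 and 224 in SPF mice, without overlap (log2 fold change 1.61 ± 0.35, adjusted p = 0.019). CGF mice had 52.1, 101 and 266 CPM, below GF mice. Pcsk1n, an inhibitor of PC1, stood at 328, 410 and 378 against 144, 93.1 and 177 CPM (1.45 ± 0.29, adjusted p = 0.013). The granin Scg2 stood at 120, 189 and 154 against 74.3, 26.6 and 56.0 CPM (1.53 ± 0.36, adjusted p = 0.026), with 52.1, 13.4 and 57.1 in CGF mice.

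The last of the 5 were granins too. Chga stood at 114, 137 and 136 against 69.3, 39.9 and 37.3 CPM (1.33 ± 0.33, adjusted p = 0.035) and Vgf at 132, 191 and 224 against 94.1, 86.5 and 74.6 (1.09 ± 0.25, adjusted p = 0.025). Of 16 genes of GABA synthesis and release, 12 were tested and 2 rose: Slc32a1, the vesicular GABA transporter, at 108, 173 and 161 against 59.4, 46.6 and 84.0 CPM (1.28 ± 0.30, adjusted p = 0.025), and Vamp2, the vesicle SNARE, at 105, 110 and 87.4 against 29.7, 26.6 and 46.6 (1.60 ± 0.44, adjusted p = 0.049). GF and SPF mice did not overlap in any of these, and values of the groups were apart for 28.8% of all tested genes. All 7 calls were lost without GF mouse 6 (edgeR's adjusted p of at most 0.175), GF mouse 7 (0.165) or SPF mouse 31 (0.166), and 2 to 4 of them without GF mouse 5, SPF mouse 30 or SPF mouse 32 (at most 0.127, 0.139 and 0.101). Over every alternative the calls were lost in 5 of 16 alternatives for Scg5, 4 of 16 for Pcsk1n, 5 of 15 for Scg2, 6 of 15 for Chga, 8 of 15 for Vgf, 7 of 16 for Slc32a1 and 8 of 15 for Vamp2.

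Among 30 genes of excitability, 25 were tested, 2 rose and 1 fell. Kcnd2, the Kv4.2 channel, stood at 1149, 1460 and 1549 CPM in GF and 3358, 4330 and 2780 in SPF mice (-1.33 ± 0.23, adjusted p = 0.0077), with 2876, 4316 and 4159 in CGF mice. GF mice lay below all 6 others, and the call held in all 16 alternatives. Kcnc1, a fast Kv3 channel, rose by 1.09 ± 0.24 (adjusted p = 0.019) and Hcn2 by 1.30 ± 0.35 (adjusted p = 0.047, lost in 12 of 15 alternatives). Of 14 GABA receptor genes, 10 were tested and 2 fell, Gabra2 (-1.22 ± 0.29) and Gabrb1 (-0.86 ± 0.23). None of the 19 tested glutamate receptors, 11 synaptic organizers and 7 medial eminence factors passed. Npas1, of the caudal eminence list, was higher in GF mice. Its change was 1.01 to 1.59 over 15 alternatives, and the call was lost in 11 of them.

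Of 96 nuclear genes of oxidative phosphorylation, 24 were tested and 8 rose (list median 1.03), among them Cox8a at 277, 350 and 287 against 89.1, 73.2 and 112 CPM (1.76 ± 0.25, adjusted p = 0.0028), and all 3 tested ribosomal protein genes rose (Rpl41 1.44, Rpl6 1.93, Rpl19 2.40). With the correction for span and GC content all 3 lost their calls, at -0.14, 0.92 and 1.30 (adjusted p = 0.87, 0.297 and 0.329). Which genes of these lists were tested depended on the filter on low counts, as given above. Of the 13 genes of the mitochondrial genome, 8 were tested and none passed. The 6 largest rises among genes above 50 CPM without overlap were Mid1, Rpl9-ps6 (2.31 ± 0.45, a pseudogene that may share reads with its parent), Haghl (2.17 ± 0.37), Ppia (cyclophilin A, 2.16 ± 0.30), Cst3 (cystatin C, 2.13 ± 0.36) and Ndufa4 (2.09 ± 0.31). The 6 largest falls were Cpne8 (-2.83 ± 0.71), Pard3b (-2.81 ± 0.39), the kinase Camk4 (-1.86 ± 0.42), Thsd7b (-1.85 ± 0.35), Upp2 (-1.62 ± 0.29) and Klhl1 (-1.50 ± 0.37). Mid1, Haghl, Pcsk1n and Gabrb1 overlap a protein-coding gene on the opposite strand. Leaving out a single mouse (any of the 6) ended the calls of 1 or more of Cpne8, Camk4, Upp2, Klhl1, Rpl9-ps6, Rpl41, Rpl19, Kcnc1, Hcn2, Gabra2 and Gabrb1, with adjusted p of at most 0.175, and of no other gene whose change is given in this paragraph.

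Mid1 stood at 192, 139 and 213 CPM in GF, 14.9, 26.6 and 9.33 in SPF and 247, 596 and 571 in CGF Hip. Both GF and CGF mice were above SPF mice without overlap (GF 3.34 ± 0.47, adjusted p = 0.0028, CGF 4.76 ± 0.45, adjusted p = 0.00015). It was the sole gene to differ between CGF and SPF Hip (1 of 3794, 0.0264%, with 270 or 7.12% at an unadjusted p under 0.05). GF and CGF Hip differed in 152 genes (4.01%, 3.19% higher in GF mice and 0.817% lower), the largest rises in GF mice being Atp5g1 (3.31 ± 0.47), the chaperone Hspa5 (3.02 ± 0.49), Chga (2.81 ± 0.47) and Bsg (2.40 ± 0.33), and the largest falls Pappa (-1.58), the nicotinic receptor Chrna7 (-1.54), Kcnd2 (-1.45) and Ttc21b (-1.43). Some of these calls were lost without a single mouse, Pappa without any of the mice 17, 18, 19, 5 and 6, Chrna7 without 18, 6 or 7 and Ttc21b without 18 or 7 (adjusted p of at most 0.174). With the correction for span and GC content all 8 calls were lost (adjusted p = 0.0542 to 0.181), with changes of 1.99 for Hspa5 and 1.41 for Bsg, while Ttc21b (-1.40), Chrna7 (-1.43) and Pappa (-1.33) moved less. The comparisons of GF with SPF and with CGF mice share the GF libraries.

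**Figure D4:**
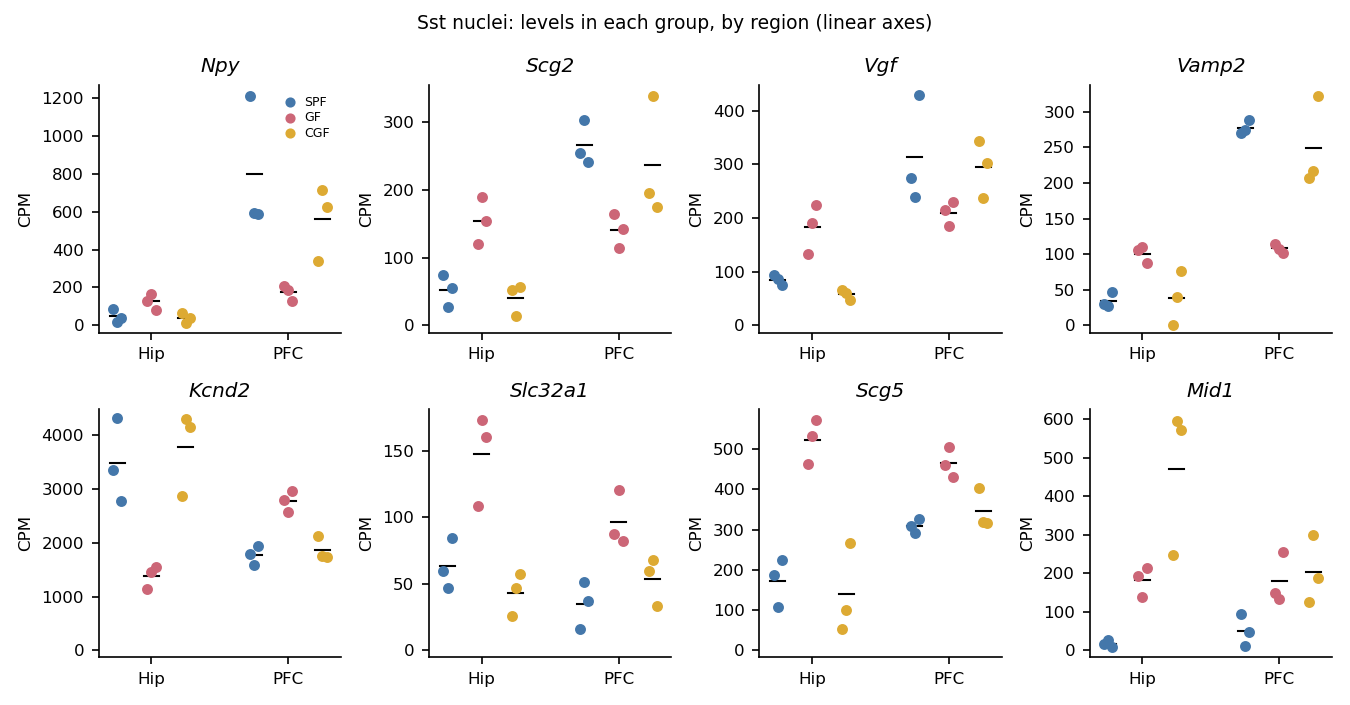
CPM in Sst nuclei of Npy, Scg2, Vgf, Vamp2, Kcnd2, Slc32a1, Scg5 and Mid1 by group in each region (linear axes from 0, 1 point per library). GF mice are above SPF mice in Scg2 and Vamp2 in the Hip and below them in the PFC, the reverse of Kcnd2, and Mid1 is lowest in SPF Hip at 9.33 to 26.6.

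In the PFC, 2252 of 6400 tested genes differed between GF and SPF mice (35.2%), 1137 higher (17.8%) and 1115 lower (17.4%). GF Sst nuclei carried less Npy, Cort, Vamp2 and complexin mRNA, more of the peptide precursor Cck, and more of several AMPA, kainate and metabotropic glutamate receptors. For 48.1% of the genes GF and SPF values were apart. Any list is to be read against the 35.2% of all genes that passed, and the GF libraries also had deeper nuclei, more Malat1 and far less Gm42418 than SPF libraries, as given above. With Sst nuclei chosen again by the same rule after thinning to 2000 UMIs, which left 13 to 29 nuclei per PFC library, and all UMIs of these nuclei summed, 496 genes passed.

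Of 12 peptide precursor genes, 4 were tested, 1 rose and 3 fell (list median -1.30, all genes 0.02). Npy stood at 210, 186 and 130 CPM in GF and 1209, 594 and 587 in SPF mice, without overlap (-2.20 ± 0.23, adjusted p = 1.8e-08, held in all 18 alternatives, with -1.14 in the nuclei chosen again at 2000 UMIs). CGF mice had 337, 713 and 624 CPM, above GF mice. In GABAergic nuclei without Sst UMI, Npy was also lower in GF (142, 133 and 97.2 CPM) than in SPF mice (267, 399 and 464). Cort, the precursor of cortistatin, a relative of somatostatin, stood at 13.3, 12.6 and 15.6 against 43.1, 34.3 and 43.6 CPM (-1.55 ± 0.41, adjusted p = 0.00395, but -0.75 and 0.149 with the correction for span and GC content), and Pdyn was lower by 1.05 ± 0.38 on the log2 scale (adjusted p = 0.031, lost in 7 of 18 alternatives).

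Cck, the precursor of cholecystokinin, took the other direction, with 298, 269 and 317 CPM in GF and 54.8, 91.4 and 50.3 in SPF mice (2.24 ± 0.26, adjusted p = 1.1e-07). CGF mice had 142, 61.1 and 208 CPM, below GF mice and overlapping with SPF mice. Of 21 subtype markers, 7 were tested and 4 fell, none rose: besides Npy these were the calcium buffer Calb2, at 10.6, 7.75 and 7.30 against 27.4, 109 and 50.3 CPM (-2.73 ± 0.48), Nos1, at 82.3, 74.6 and 26.1 against 235, 223 and 107 (-1.60 ± 0.31), and Elfn1 (-0.51, lost in 4 alternatives). The Nos1 change had the opposite sign, 0.12, in the nuclei chosen again at 2000 UMIs, a setting that changes which nuclei are summed and how many.

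Peptide processing genes moved both ways, 3 of 12 tested rising and 2 falling (list median 0.02). Scg2, higher in GF Hip, was lower in GF PFC at 165, 114 and 143 against 254, 303 and 242 CPM (-0.91 ± 0.20), and Vgf stood at 215, 185 and 229 against 274, 240 and 430 (-0.62 ± 0.18, lost in 5 alternatives and turned to 0.21 with the correction for span and GC content). Scg5 was higher, at 460, 507 and 430 against 309, 291 and 325 CPM (0.58 ± 0.15, adjusted p = 0.00299), as was Chgb at 135, 176 and 150 against 66.5, 114 and 50.3 (1.09 ± 0.27). With nuclei chosen again at 2000 UMIs, Chgb (0.85, adjusted p = 0.112) and Scg2 (-0.73, adjusted p = 0.092) lost their calls, in 1 of 18 alternatives each. In both regions GF and SPF mice did not overlap in Scg2, Scg5 and Vgf.

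Of 16 genes of GABA synthesis and release, 14 were tested, 4 rose and 3 fell (list median 0.09). Slc32a1 stood at 87.7, 120 and 82.4 against 15.7, 51.4 and 36.9 CPM (1.55 ± 0.32). Vamp2 was lower, at 114, 108 and 102 against 270, 274 and 289 CPM (-1.37 ± 0.17, adjusted p = 3.2e-07), with 207, 217 and 322 in CGF mice. The complexins, which clamp and trigger the SNARE complex, were lower too, Cplx1 at 75.7, 91.0 and 84.5 against 192, 366 and 255 CPM (-1.65 ± 0.21) and Cplx2 by 1.21 ± 0.22 on the log2 scale. Of 17 synaptic organizers, 12 were tested, 3 rose and 4 fell, the neurexin Nrxn2 changing by -1.24 ± 0.15 and gephyrin (Gphn), the scaffold of inhibitory synapses, by -1.15 ± 0.16. Nrxn2 overlaps Slc22a12 on the other strand.

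Of the 20 tested glutamate receptor genes, 8 were higher in GF mice and 3 lower (list median 0.21). Grik1, a kainate receptor of interneurons, stood at 2019, 1701 and 1679 against 1076, 726 and 1117 CPM (0.87 ± 0.16), Grik2 at 2879, 2772 and 3107 against 1515, 1417 and 1614 (0.94 ± 0.14), and Grm5 at 1554, 1697 and 1986 against 842, 857 and 1013 (0.95 ± 0.15). These did not overlap, and their calls held in every alternative, with smaller changes under the correction for span and GC content (Grik1 0.69, Grik2 0.38, Grm5 0.56, and Gria4 0.37). Gria4 was higher by 0.65 ± 0.15, Gria2 by 0.65, Gria3 by 0.82, Grm3 by 0.83 and Grin3a by 0.52, while Gria1 (-0.42, lost in 5 alternatives) and Grm4 (-1.44) were lower. Gria2 was lost in 2 alternatives (to 0.21, adjusted p = 0.278), Grin3a in 2 (adjusted p to 0.179) and Gria3 in 1 (0.094). Of 12 tested GABA receptors 2 rose, and of 15 tested receptors for other modulators 1 fell, the nicotinic subunit Chrna4 (-1.89).

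Among 27 tested excitability genes 6 rose and 9 fell (list median -0.26). Kcnd2 was higher, at 2805, 2566 and 2968 against 1785, 1594 and 1933 CPM (0.65 ± 0.14, but 0.33 and lost at an adjusted p of 0.0591 with the correction for span and GC content), and Kcna1 rose by 1.55 ± 0.33. Cacna1g, a T-type calcium channel, stood at 41.2, 57.1 and 61.5 against 157, 171 and 161 CPM (-1.58 ± 0.22), and CGF mice (130, 105 and 181) lay above GF mice.

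Of 10 tested medial eminence factors 2 fell, the homeobox genes Dlx1 (-1.37 ± 0.27) and Dlx6 (-1.26). Of 4 tested genes of the caudal eminence 2 rose and 1 fell: Adarb2 stood at 503, 188 and 370 CPM in GF and 15.7, 34.3 and 238 in SPF mice, with overlap (1.70 ± 0.49, adjusted p = 0.00751), and its sign turned to -0.60 in nuclei with at least 6 Sst UMIs and to -0.20 in nuclei with more UMIs of medial than of caudal markers. Of 57 tested oxidative phosphorylation genes 14 rose and 7 fell (Cox7c 2.50, Atp5h -1.74), and of 27 tested ribosomal protein genes 1 rose and 11 fell (list median -0.68). All 13 genes of the mitochondrial genome fell (median -2.17), as did the 4 genes that overlap or resemble ribosomal RNA, among them Gm42418 (-6.25 ± 0.23) and Lars2 (-4.37). Single mice ended the calls of Pdyn (without mouse 5, 31 or 32), Gria1 (5, 6 or 31), Adarb2 (30 or 31) and Vgf (32), with adjusted p of 0.0556 to 0.265. The mitochondrial share of the Sst UMIs was 0.236 to 0.743% in GF and 1.60 to 3.35% in SPF PFC.

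The 6 largest rises were Nrg3os, at 695, 626 and 542 against 7.83, 5.71 and 3.36 CPM (6.75 ± 0.31, adjusted p = 2.9e-16), P2ry14 (5.94), Lrtm1 (5.44), the potassium channel Kcnq1, at 363, 295 and 261 against 7.83, 17.1 and 6.71 CPM (4.95 ± 0.32), Slc24a5 (4.54) and Sorbs2os (4.43). Of these all but Kcnq1 lie over a protein-coding gene on the opposite strand (noncoding partners were not counted), Nrg3os over Nrg3, P2ry14 over Med12l, Lrtm1 over Cacna2d3, Slc24a5 over Myef2 and Sorbs2os over Sorbs2, and reads of such a pair are uncertain. Such overlap held for 155 of the 195 genes at least 4-fold higher in GF PFC (79.5%), for 32 of the 129 at least 4-fold lower (24.8%) and for 1413 of all 6400 tested (22.1%). The 6 largest falls were Cmss1 (-5.09, over Filip1l), Il31ra (-4.46), Lars2, Lrrc45, at 29.2, 39.7 and 36.5 against 564, 514 and 490 CPM (-3.87 ± 0.18), Fah (-3.33) and Dnah7c (-3.25).

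GF and CGF PFC differed in 1991 genes (31.1%, 15.7% higher in GF mice and 15.4% lower), with Nrg3os (5.94), P2ry14 (4.46), Glp2r (3.98) and Sorbs2os (3.96) most raised and Cmss1 (-5.57), Il31ra (-5.00), Lars2 (-4.82) and Lrrc45 (-3.42) most lowered in GF mice, and Npy lower by 1.70 ± 0.24 on the log2 scale. In the nuclei chosen again at 2000 UMIs this Npy difference was -0.25 and was lost (adjusted p = 0.701). CGF and SPF PFC differed in 3 of 6400 genes (0.0469%, 0.0312% higher in CGF mice and 0.0156% lower), with 393 (6.14%) at an unadjusted p under 0.05. Mid1 stood at 124, 299 and 188 CPM in CGF and 93.9, 11.4 and 47.0 in SPF mice (1.98 ± 0.39, adjusted p = 0.041, lost in 7 of 18 alternatives). The other 2 are outside the naming rule and were named after their values were seen. Sim2, a transcription factor, had 15, 32 and 32 UMIs (88.8, 109 and 215 CPM) in CGF and none in SPF mice, at least 30.8-fold higher against 3 UMIs over the group, with 0, 0 and 1.04 CPM in GF mice and 95.4, 145 and 187 in CGF GABAergic nuclei without Sst UMI. Gm45844 stood at 17.8, 30.6 and 33.5 against 176, 120 and 144 CPM (-2.41 ± 0.41, adjusted p = 0.0057), with 18.6, 4.84 and 3.13 in GF mice. The Mid1 call was lost without mouse 18 (edgeR's adjusted p = 0.355), 31 (0.268), 32 (0.263) or 19, and that of Gm45844 without mouse 17 (0.103), 30 (0.093) or 19 (0.0658 and 0.129 for the pair without mouse 19).

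The change from SPF to GF mice differed between the regions for 1081 of 6038 genes (17.9%, 8.51% more positive in Hip and 9.39% in PFC), tested as an interaction over all 18 libraries. Among the genes above, Npy (3.40 ± 0.55 more positive in Hip, adjusted p = 0.00012), Vamp2 (2.94 ± 0.41), Scg2 (2.41 ± 0.42), Vgf (1.67 ± 0.34), Cort (2.88 ± 0.89, adjusted p = 0.025) and Kcnd2 (-2.01 ± 0.27) passed, and Scg5 and Slc32a1, higher in GF mice in both regions, did not. Cort had only 37 UMIs over all Hip Sst nuclei and none in 4 Hip libraries, and no alternative was run for its contrast. Of 12 tested peptide processing genes 4 were more positive in Hip and 1 in PFC, and of 13 tested GABA receptors 4 were more positive in PFC. The same held in Hip for 14 of 21 ribosomal protein genes, 11 of 13 genes of the mitochondrial genome and 13 of 52 of oxidative phosphorylation. GF and SPF libraries differed in depth per Sst nucleus in opposite directions in the 2 regions, with library medians of 6542 to 7982.5 against 7915 to 11465 UMIs in the Hip and 7244 to 7804 against 3915 to 4254 in the PFC, and the part of this in the contrast was not tested. Gm42418 and Malat1 also differed between the groups, as given above, and their part in the contrast was not tested either. With the correction for span and GC content, Vgf fell to 0.21 (adjusted p = 0.777) and lost its call, and Npy (2.24), Vamp2 (1.56), Scg2 (1.43) and Kcnd2 (-1.34) kept theirs.

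The change from SPF to GF mice was compared between Sst nuclei and GABAergic nuclei with no Sst UMI in the same libraries, as an interaction with the library as a block. It differed for 5 of 12925 genes in the Hip (0.0387%, 1 more positive in Sst nuclei or 0.00774% and 4 more negative or 0.0309%, with 641 or 4.96% at an unadjusted p under 0.05 and 0 by DESeq2) and for 2 of 11471 in the PFC (0.0174%, both more negative in Sst nuclei, with 597 or 5.20% unadjusted and 1 by DESeq2). None of the secretory, release, receptor or channel genes named above passed this test, so their changes in Sst nuclei were not shown to differ from those in other GABAergic nuclei. On simulated counts this test recovered 48% of 4-fold and 13% of 2-fold differences in the Hip, and 76 and 16% in the PFC. All genes had the same spread in these counts, so the rates hold for such counts only.

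In the Hip, Pard3b stood at 27.1, 74.0 and 83.3 CPM in GF and 530, 472 and 336 in SPF Sst nuclei, and at 83.4, 80.1 and 55.2 against 87.1, 127 and 114 in the other nuclei (difference of log2 changes -2.33 ± 0.31, adjusted p = 2.8e-06). Its Sst level was several times higher in all SPF mice, whereas CGF Sst nuclei had 260, 46.9 and 133 CPM and overlapped with GF mice. Cpne8, a copine, stood at 15.0, 39.7 and 4.06 against 44.6, 186 and 261 CPM in Sst nuclei and at 52.8, 62.2 and 37.2 against 60.4, 66.9 and 84.6 in the others (-2.48 ± 0.46). Camk4 stood at 111, 88.4 and 81.3 against 129, 286 and 672 CPM and at 137, 122 and 123 against 160, 162 and 183 (-1.44 ± 0.30).

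Fgf13, which binds sodium channels, stood at 250, 179 and 205 against 362, 1051 and 345 CPM in Sst nuclei and 1203, 677 and 937 against 924, 1038 and 610 in the others (-1.53 ± 0.28, adjusted p = 0.0047). GF lay below SPF mice in Sst nuclei and overlapped with them in the others. Plpp4, a lipid phosphatase, had 54 UMIs over the 3 GF libraries (66.1, 28.9 and 32.5 CPM) and 3 over the SPF libraries in Sst nuclei, against 14.7, 21.6 and 21.5 and 43.7, 44.1 and 26.8 CPM in the others (3.55 ± 0.74, adjusted p = 0.026).

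In the PFC, Gpc5, a glypican, stood at 566, 195 and 184 CPM in GF and 387, 1160 and 537 in SPF Sst nuclei, with overlap, and at 263, 187 and 217 against 135, 87.4 and 114 in the others (-2.18 ± 0.31, adjusted p = 0.00016). Scn9a, the sodium channel Nav1.7, stood at 113, 65.9 and 40.7 against 78.3, 34.3 and 26.8 CPM in Sst nuclei and at 120, 160 and 79.3 against 10.6, 2.19 and 17.2 in the others (-2.93 ± 0.50, adjusted p = 0.0042). GF and SPF mice overlapped in Sst nuclei for Scn9a and were apart in the other nuclei. Scn9a and Plpp4 are below the level the naming rule asks for and were named after their values were seen. Leaving out SPF mouse 31 ended the calls of Fgf13, Plpp4, Scn9a and Gpc5 (adjusted p of 0.19, 0.14, 0.0697 and 0.0697), leaving out GF mouse 5 that of Plpp4 (0.073), SPF mouse 30 that of Scn9a (0.65), and GF mouse 6 or SPF mouse 32 that of Camk4 (0.053 and 0.82). The Camk4 value was -0.91 without SPF mouse 32, and that of Gpc5 ranged from -6.36 to -1.54 over its 18 alternatives. Cpne8 was lost in 3 alternatives, among them sums thinned to the smallest and likely doublets left out (value to -1.77).

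**Figure D5:**
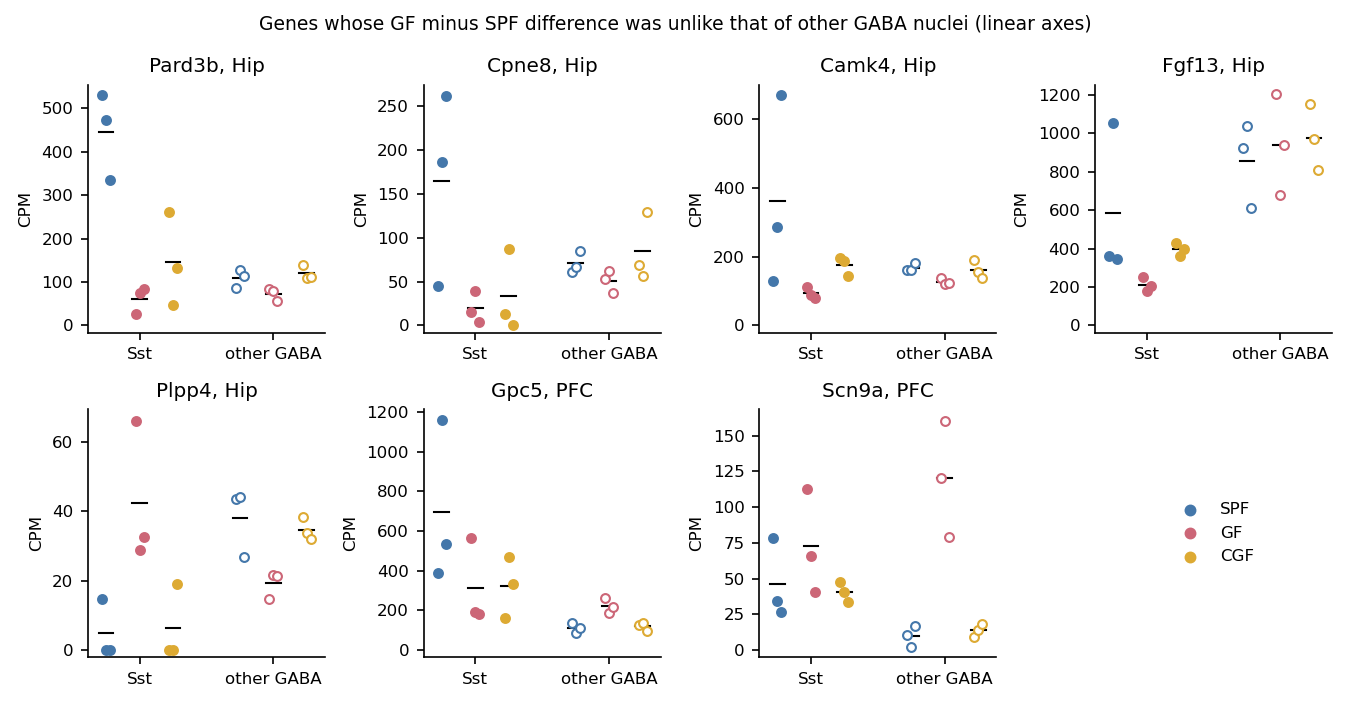
CPM of the 7 genes whose change from SPF to GF mice differed between Sst nuclei (filled) and GABAergic nuclei with no Sst UMI (open), by group (linear axes from 0, 1 point per library). In Hip Sst nuclei Pard3b lies at 336 to 530 in SPF and 27.1 to 83.3 in GF mice, while the open points of both groups lie at 55.2 to 127.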

How the data were processed

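Single-nucleus RNA was measured in 18 libraries, the Hip and PFC of the same 9 mice. The deposited files hold counts of UMIs per gene and nucleus barcode. Per the study's methods and the file headers, the authors isolated nuclei from snap-frozen tissue on a sucrose gradient, used 10x Genomics 3' chemistry, filtered reads with fastp, and counted them on mm10 with Cell Ranger 3.1.0 (the submitters' processing notes also name CASAVA 1.8). Nuclear RNA is rich in unspliced transcripts, and depth per nucleus sets which nuclei reach 3 Sst UMIs. The members and the gene lists were chosen with earlier results of these data known.

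Nuclei were selected as described above, with no doublet caller (nuclei above 2 times the median UMIs were left out in an alternative). UMIs were summed per library (93548 to 1182023 per Sst sum) and tested with edgeR 4.0.16 in R 4.3.3 (filterByExpr, TMM, quasi-likelihood F test, Benjamini-Hochberg, threshold 0.05): 1 fit of the 9 libraries of each region for groups, 1 of all 18 for regions, and 1 of Sst and other GABAergic sums with the library as a block. CPM of single genes given by mouse in the comparisons are scaled by TMM. Pooled CPM, the Sst library medians and the Sst CPM over GABAergic sums are scaled to total UMIs. So are the ranges of Malat1, Gm42418, Ttr and the marker sets. DESeq2 1.42.0 served as an alternative, and shares were compared with exact permutation tests in scipy 1.17.1. Intervals and floors (3 counts) cover counting error only. Named genes were all genes of the fixed lists, within their lists, and, among genes past the threshold with groups that did not overlap and a mean of at least 50 CPM (predicted and clone names left out), the 6 largest rises and falls between GF and SPF mice and between regions and the 4 largest in the other comparisons. List genes that were not named are included in the counts, and some that passed are not reported here. Of 30905 genes, 30766 (99.55%) had a span and GC content from the annotation.

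Replicates are separate mice. Hip and PFC libraries with the same number come from the same mouse, so numbers pair the regions. Deviations of paired libraries from their group means correlated by -0.0255 to 0.0979 over the 9 mice (median 0.0271). Hip and PFC libraries of different mice of a group correlated by -0.119 to 0.0575 (18 pairs, median -0.00996). These ranges overlap, so expression alone hardly shows the pairing. On simulated counts with known changes, 4-fold changes were recovered for 95% of genes in the Hip (3794 genes), 98% in the PFC (6400 genes) and 85% between regions in SPF mice (6038 genes), and 2-fold changes for 52, 59 and 42%. For the difference between regions (6038 genes) they were 76 and 18%, for Sst against other GABAergic nuclei 48 and 13% in the Hip (12925 genes) and 76 and 16% in the PFC (11471 genes). False calls numbered 6, 7, 7, 6, 2 and 2 in this order of tests. The simulation gave all genes the same spread, changed 100 genes at each fold and drew the sums independently. Mixes of nuclei that differ between mice were not simulated, so the rates hold for such counts only. Promoter sequences came from a RefSeq table of GRCm38.p6, and protein sequences were not used here.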

Additional observations from a re-analysis of the deposited data

Results flagged for a closer look

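The change from SPF to GF mice differed between the regions for 1081 of 6038 genes by edgeR's test of the interaction, genes named above among them. On the log2 scale the change from SPF to GF mice was more positive in the Hip by 3.40 for Npy, 2.94 for Vamp2, 2.41 for Scg2 and 1.67 for Vgf, and by -2.01 for Kcnd2. With length and GC trends removed Vgf fell to 0.21 (adjusted p = 0.777) and lost its call, Npy to 2.24 and Vamp2 to 1.56. In the Hip GF Sst nuclei numbered 42 to 89 per library against 11 to 19 in SPF mice. In the PFC the GF libraries held more UMIs per nucleus. Gm42418 stood at 128 to 162 CPM in GF and 9974 to 16934 in SPF PFC. In the Hip it stood at 191 to 287 and 378 to 1361 CPM. Malat1 was higher in GF mice in both regions. Of the genes at least 4-fold higher in GF PFC, 79.5% overlapped a protein-coding gene on the opposite strand, against 22.1% of all tested. The part of any of these in the values was not tested.

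Between Sst nuclei and the other GABAergic nuclei the same change differed in the Hip for 5 genes, Pard3b (-2.33), Fgf13 (-1.53), Plpp4 (3.55), Cpne8 (-2.48) and Camk4 (-1.44), and in the PFC for 2 genes, Scn9a (-2.93) and Gpc5 (-2.18). Leaving out 1 mouse ended the call at least once for Fgf13, Plpp4, Camk4, Scn9a and Gpc5. Cpne8 was lost in 3 alternatives (DESeq2, thinned sums and likely doublets left out), and Pard3b with DESeq2 alone.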

How the results depend on the processing

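With sums thinned to the smallest one, the calls were 43 (GF against SPF Hip), 43 (GF against CGF Hip), 997, 6 and 948 (PFC: GF against SPF, CGF against SPF, GF against CGF), 41, 738 and 702 (regions in GF, SPF, CGF), 30 (regions in all 3), 253 (difference between regions) and 10 (Sst against other GABAergic nuclei, Hip). With PFC nuclei chosen again after thinning to 2000 UMIs, all their UMIs summed, they were 496, 0, 416 and, for the class comparison, 6, and with at least 6 Sst UMIs 1386, 1 and 1107. These settings could not be run for the Hip, the 18-library or the Hip class fits, where some libraries had no such nucleus.

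Without the filter on low counts the calls were 476, 34 and 337 in Hip (GF against SPF, CGF against SPF, GF against CGF), 7 for CGF against SPF PFC, 333 for regions in GF mice and 27 and 11 for the classes in Hip and PFC. With length and GC trends removed they were 29 and 8 in Hip (GF against SPF and CGF), 967 for regions in CGF mice, 526 for the difference between regions and 23 for Hip classes. DESeq2 called 0 and 1 genes for the classes in Hip and PFC. Fits of only the 2 groups compared gave 302 (GF against CGF Hip) and 8 (Hip classes), leaving out likely doublets 28, and nuclei with more medial than caudal markers, chosen after seeing the data, 9.

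Leaving out 1 mouse in turn gave ranges of 39 to 266, 1 to 2 and 26 to 234 in Hip (GF against SPF, CGF against SPF, GF against CGF), 1790 to 2377, 1 to 8 and 1507 to 2083 in PFC, 59 to 235, 1170 to 1894 and 887 to 1621 for regions in GF, SPF and CGF mice, 36 to 81 for all 3, 710 to 1157 for the difference between regions, and 6 to 40 and 0 to 9 for the classes in Hip and PFC. GF against SPF Hip moved to 91, 39 and 62 without GF mice 5, 6 and 7, and to 106 and 100 without SPF mice 30 and 31. CGF against SPF Hip moved to 2 without GF mouse 6. GF against CGF Hip moved to 80, 39 and 100 without CGF mice 17, 18 and 19, to 26 and 48 without GF mice 6 and 7, and to 234 without SPF mouse 31. CGF against SPF PFC moved to 8 and 1 without CGF mice 18 and 19. Regions in GF mice moved to 125, 59 and 72 without mice 5, 6 and 7, those in CGF mice to 887 and 993 without mice 18 and 19, all 3 to 36 and 44 without GF mice 6 and 7, and the difference between regions to 710 without SPF mouse 30. The Hip class count moved without CGF mice 18 and 19 (17, 21), GF mice 5, 6 and 7 (14, 14, 23) and SPF mice 30, 31 and 32 (40, 15, 9), and the PFC one without GF mouse 6 (9) and SPF mice 31 and 32 (0, 4).

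With the mouse as a replicate block the counts were 195, 1730 and 1481 between regions in GF, SPF and CGF mice, 93 in all 3 and 1031 for the difference between regions, and the block moved no count by over 1.5 times.

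The range of the group mean shares was 1.81 points in the Hip at 2000 UMIs (exact permutation P = 0.05), and in the PFC 7.66 points at 2000 UMIs (exact permutation P = 0.0143) and 0.971 points of all kept nuclei (exact permutation P = 0.00714), where GF mice were highest, not lowest as at 2000 UMIs. Leaving out mice gave 7.99 to 10.5 points in Hip, 1.43 to 6.46 in PFC, -10.2 to -8.20 for Hip minus PFC and 5 to 6 subtype markers past the threshold, with 0 at all UMIs. Of 2991 alternatives over 184 gene results, 2680 kept direction and call, 306 lost the call and 5 changed direction: Nos1 in PFC (0.12 with nuclei chosen at 2000 UMIs), Adarb2 in PFC (-0.60 with at least 6 Sst UMIs, -0.20 with more medial markers), and, with length and GC removed, Rpl41 in Hip (-0.14) and Vgf in PFC (0.21). Why they changed was not tested.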
